A study of Mus musculus with 6 samples.

Results

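The clustered Hox genes were examined in CD31+ckit+Vmed and CD31+ckit+Vhigh cells sorted from E10.5 mouse AGMs (aorta-gonad-mesonephros regions). They were taken as every gene whose symbol is Hox, a cluster letter from a to d and a number, with no antisense or microRNA symbol, which gave 39 of the 24062 genes counted. All embryos carried the Gata2Venus allele on the C57BL/6JOlaHsd strain, in which an IRES-Venus cassette reports transcription of Gata2 while the Gata2 protein is still made, and the methods give the sorted embryos as heterozygous for it. CD31 (the product of Pecam1) marks endothelial cells and the hematopoietic clusters on them, ckit marks cells that are entering the blood lineage, and Venus fluorescence split the CD31+ckit+ cells into Vmed (G2Vi in the labels) and Vhigh (G2Vh). Each fraction was sequenced in 3 libraries, numbered 1 to 3, and no untreated or Venus-negative sample was analysed here. How many embryos went into a library is not given in the sources used here, so p-values measure the spread between these libraries only.

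Hox genes encode homeodomain transcription factors and lie in 4 clusters, in each of which the order of the genes along the chromosome follows the order of their activation in time and of their expression from head to tail. Genes at the same position in different clusters are paralogs and carry the same number, low for anterior and high for posterior genes. Hox proteins bind DNA together with Pbx and Meis cofactors, and in blood several members, above all those of the Hoxa cluster, are known from stem and progenitor cells and from leukemias, where they are lost as cells mature. Here paralogs 1 to 4 are called anterior, 5 to 8 central and 9 to 13 posterior. On GRCm38 the Hoxa cluster lies on chromosome 6 on the minus strand, and the other clusters lie on plus strands: Hoxb on chromosome 11 (96194316 to 96368256), Hoxc on chromosome 15 (102921103 to 103036852) and Hoxd on chromosome 2 (74668310 to 74765142).

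Promoter sequence was available from RefSeq (GRCm38.p6) for 22 of the 39 genes, as 24 start sites. The 250 bases before the start are shown for Hoxa9, the gene whose fractions separated with Vhigh higher, for its neighbour Hoxa10 at the nearer of its start sites, for Hoxa5, which like them was detected in every library, and for Hoxd10, which was among the highest in Vmed and was at 0 counts in 1 Vhigh library. They are chr6:52227371-52227620 (minus strand), chr6:52234940-52235189 (minus), chr6:52204588-52204837 (minus) and chr2:74691641-74691890 (plus), written 5′ to 3′ and touching no annotated exon. Capitals mark matches on either strand to CCAAT, the motif of the factor NF-Y, or to TATAAA, the TATA box.
Hoxa9: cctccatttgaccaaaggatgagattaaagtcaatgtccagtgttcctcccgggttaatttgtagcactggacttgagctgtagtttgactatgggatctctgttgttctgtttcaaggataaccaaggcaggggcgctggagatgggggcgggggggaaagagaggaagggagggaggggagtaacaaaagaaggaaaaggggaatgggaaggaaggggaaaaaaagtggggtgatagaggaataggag
Hoxa10: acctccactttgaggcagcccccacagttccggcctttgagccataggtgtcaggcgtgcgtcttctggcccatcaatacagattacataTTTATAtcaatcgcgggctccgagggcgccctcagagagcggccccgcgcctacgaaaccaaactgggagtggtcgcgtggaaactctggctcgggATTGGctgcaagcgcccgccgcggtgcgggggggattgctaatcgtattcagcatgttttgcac
Hoxa5: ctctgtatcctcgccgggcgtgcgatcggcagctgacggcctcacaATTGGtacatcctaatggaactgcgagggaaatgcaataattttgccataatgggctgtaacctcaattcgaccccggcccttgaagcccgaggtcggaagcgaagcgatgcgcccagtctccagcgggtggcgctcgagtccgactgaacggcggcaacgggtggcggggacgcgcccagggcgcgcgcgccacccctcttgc
Hoxd10: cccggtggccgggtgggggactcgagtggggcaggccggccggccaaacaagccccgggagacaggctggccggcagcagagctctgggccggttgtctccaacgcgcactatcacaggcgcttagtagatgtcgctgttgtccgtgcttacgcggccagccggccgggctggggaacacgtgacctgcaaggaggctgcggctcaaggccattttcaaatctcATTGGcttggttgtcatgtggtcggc
CCAAT was present in 14 of the 24 Hox windows and in 33.8% of all 32851 promoter windows of this length, and TATAAA in 4 Hox windows against 12.4% of all. The Cdx motif TTTATG was found in 5 Hox windows (10.8% of all) and the Hox-Pbx motif TGATTNAT in 2 (2.82% of all). AGATAA, a form of the GATA motif, was in 0 of the 24 (9.99% of all). Other forms of the GATA motif, such as the TGATAG in the Hoxa9 window, were not searched. Of the windows shown, Hoxa10, Hoxa5 and Hoxd10 held a CCAAT match, Hoxa10 also a TATAAA match, and Hoxa9 none of the 5 motifs. A match describes these letters and does not show binding.

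Gene totals were between 8296831 and 12035206 counts per library, so that the 3 counts taken here as detection correspond to 0.249 to 0.362 CPM (counts scaled to a library's gene total), a limit that covers counting error only. Vhigh 1 was the library with the fewest detected genes, 9084 against 12232 to 17414 in the others. Of genes with a mean between 2 and 50 CPM in the other 5 libraries, 51.2% were under 3 counts in Vhigh 1, while 3.73% to 20.7% were so in the other libraries by the same rule. Reads outside annotated genes also differed, from 13.5% to 15.4% in replicate 3 to 49.2% and 60.7% in replicate 2. This is a share of the reads counted to a gene, to several genes or to none, without the other unassigned reads. CD31 and ckit were present at the RNA level in all libraries (Pecam1 118 to 570 CPM, Kit 59.1 to 521 CPM). Gata2 itself was 50.3, 29.4 and 68.3 CPM in Vmed and 39.2, 82.5 and 142 CPM in Vhigh, with overlapping fractions.

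Hox transcripts were found in every library. Their sum was 398, 228 and 351 CPM in Vmed 1, 2 and 3 and 294, 222 and 217 CPM in Vhigh, or 325 ± 87.6 CPM against 244 ± 43.2 CPM (SD, n = 3), and the fractions overlapped because Vhigh 1 lay above Vmed 2. The number of Hox genes detected was 28, 26 and 28 in Vmed. In Vhigh it was 7, 26 and 25, so Vhigh 1 stood apart and the other Vhigh libraries held nearly as many as the Vmed libraries. Of the Hox genes with a mean of 2 to 50 CPM elsewhere, 21 of 27 (77.8%) were under 3 counts in Vhigh 1, beside the 51.2% of all such genes given above. In this library 26 members that were detected elsewhere had 0 counts, and the 7 detected included Hoxa5, Hoxa7, Hoxa9, Hoxa10, Hoxb9 and Hoxc4. The part of the low number of detected genes in the Hox pattern of Vhigh 1 was not tested. In bulk samples such as these, fewer cells of a type and less RNA per cell cannot be told apart.

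**Figure D1:**
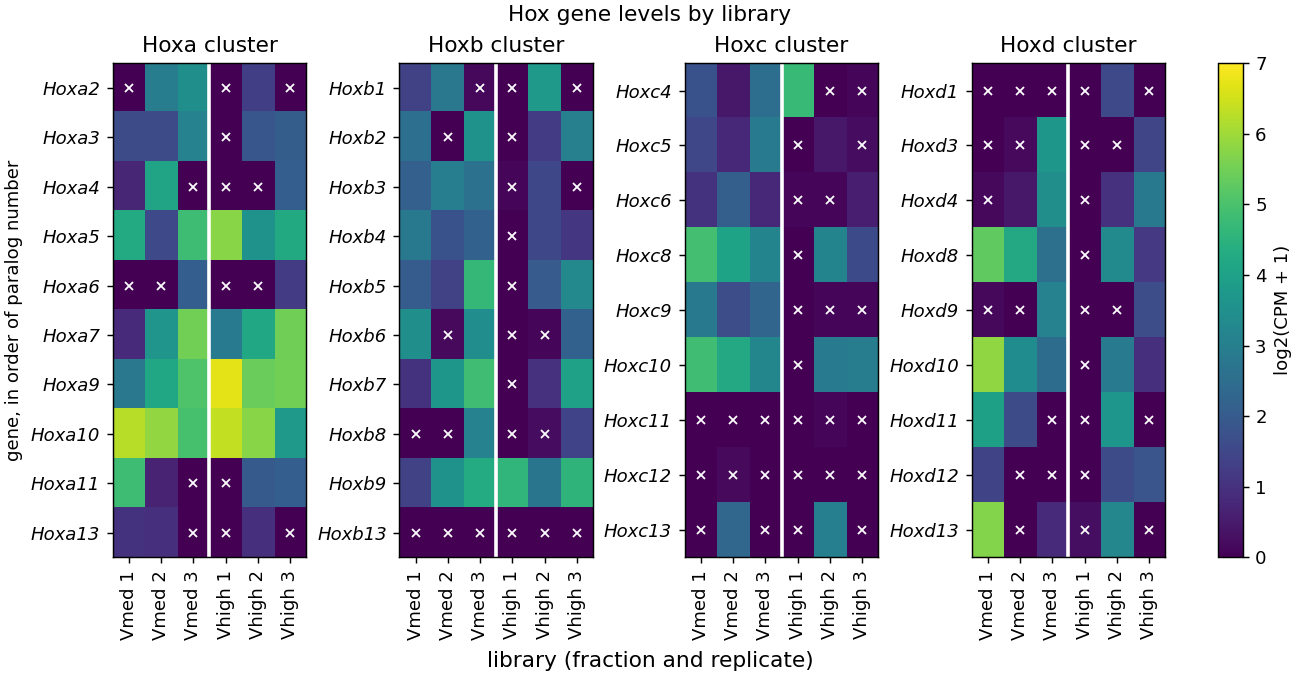
Level of 38 of the 39 Hox genes (rows, by cluster and paralog number) in each library (columns), as log2(CPM + 1); crosses mark fewer than 3 counts and the white line separates Vmed from Vhigh. The Vhigh 1 column holds 32 crosses, and Hoxa5, Hoxa7, Hoxa9, Hoxa10 and Hoxb9 hold none in any library.

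Detection divided the members. Hoxa5, Hoxa7, Hoxa9, Hoxa10 and Hoxb9 were detected in all 6 libraries. Another 8 (Hoxa3, Hoxb4, Hoxb5, Hoxb7, Hoxc8, Hoxc10, Hoxd8 and Hoxd10) were missing from Vhigh 1 and from no other library. Hoxb13, Hoxc11 and Hoxc12 were detected in 0 of 6 libraries, with at most 1 count in any library, and Hoxd1, the anterior end of its cluster, was detected in Vhigh 2 and in no other library. The remaining 22 members were detected in 2 to 4 libraries, and the libraries that held them differed from gene to gene. Hoxa13, for example, was at 1.03 and 0.964 CPM in Vmed 1 and 2 and at 0 in Vmed 3, and Hoxc13 was at 3.98 CPM in Vmed 2 and 7.18 CPM in Vhigh 2 and at 0 in the other 4 libraries. Among neighbours on the chromosome, Hoxa7 and Hoxa9, Hoxa9 and Hoxa10, Hoxb4 and Hoxb5, and the undetected Hoxc11 and Hoxc12 were in the same state, detected or undetected, in 6 of 6 libraries. Hoxb8 and Hoxb9 were so in 2 libraries, and Hoxb9 and Hoxb13 in 0.

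The Hoxa cluster had the largest sum in 5 of 6 libraries (in Vmed 1 it was Hoxd), and it made up a larger part of the Hox counts in each Vhigh library than in any Vmed library. The 11 Hoxa genes together were 135, 114 and 171 CPM in Vmed 1, 2 and 3 and 245, 131 and 133 CPM in Vhigh, so their level overlapped between fractions. As a share of the library's Hox counts they were 34.0% (95% Wilson interval 32.4 to 35.6), 50.1% (47.8 to 52.3) and 48.6% (46.9 to 50.3) in Vmed. In Vhigh the share was 83.4% (82.0 to 84.6), 59.2% (57.2 to 61.1) and 61.2% (59.3 to 63.0). These intervals, like those of the single genes below, treat reads as independent molecules and cover counting error only. The means were 44.2% ± 8.90 and 67.9% ± 13.4 (SD, n = 3), and per kilobase of exon they were 40.3% and 62.0%. The shares did not overlap with or without Vhigh 1, the library with the highest share. The share rests on the sum of the other clusters as much as on Hoxa, and those sums were lower in several Vhigh libraries.

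The Hoxc cluster, whose members are known from trunk and limb patterning and from motor neurons, was lower in Vhigh in CPM but not as a share. Its 9 genes summed to 68.5, 44.0 and 32.0 CPM in Vmed and 25.4, 22.2 and 9.47 CPM in Vhigh, and the lowest Vmed library was above the highest Vhigh library. In Vhigh 1 Hoxc4 held 270 of the 271 Hoxc counts. As a share of Hox counts the cluster overlapped, with 17.2%, 19.3% and 9.12% in Vmed and 8.65%, 10.02% and 4.37% in Vhigh. Hoxd summed to 162, 29.8 and 39.9 CPM in Vmed and 0.188, 40.5 and 14.7 CPM in Vhigh, so that Vhigh 2 lay above Vmed 2 and 3, and the mean was carried by Vmed 1. Hoxb summed to 32.1, 40.0 and 108 CPM in Vmed and 23.3, 27.7 and 60.0 CPM in Vhigh, with replicate 3 the highest in both fractions and the fractions overlapping.

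**Figure D2:**
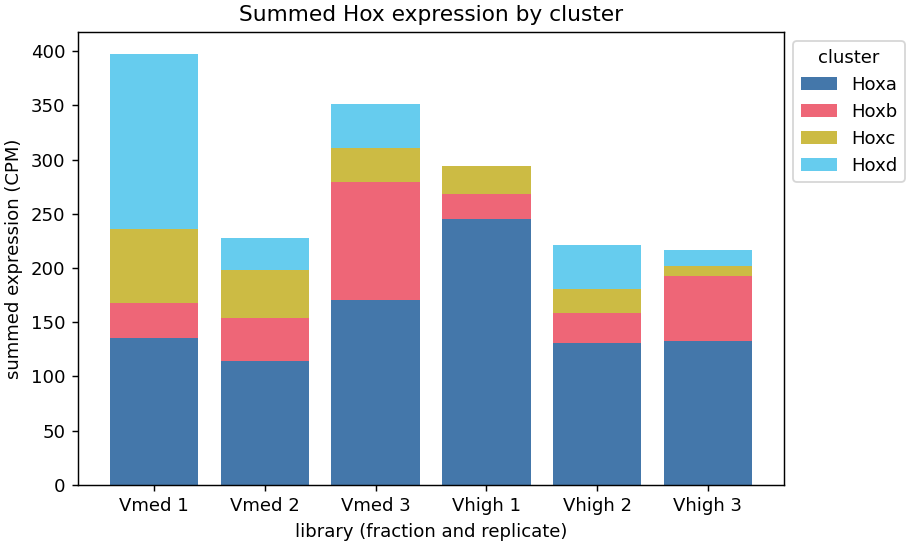
Summed expression of the Hox genes in CPM (vertical axis, from 0) in each library (horizontal axis), stacked by cluster. The Hoxa segment runs from 114 to 245 CPM, the Hoxc segment is higher in each Vmed than in each Vhigh library, and the Hoxd segment is near 0 in Vhigh 1.

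Read by position along the clusters, posterior genes took on average the largest part of the Hox counts in both fractions, with a share of 50.5% ± 18.7 in Vmed and 60.3% ± 14.2 in Vhigh (SD, n = 3). Anterior genes took 15.7% ± 8.26 and 10.6% ± 1.63. Central genes took a mean of 33.9% and 29.0% and were above the posterior genes in Vmed 3 (166 against 107 CPM). Each of the 3 zones overlapped between fractions. Paralog groups 8 and 9, which adjoin, were ordered differently. Paralog group 8 (Hoxb8, Hoxc8 and Hoxd8) summed to 67.2, 33.4 and 20.5 CPM in Vmed and 0, 17.4 and 4.90 CPM in Vhigh, where each Vhigh library was below each Vmed library. Paralog group 3 separated in the same way, with 5.49, 9.16 and 24.6 CPM in Vmed and 0.0938, 4.51 and 4.90 CPM in Vhigh. In CPM the fractions overlapped for the other paralog groups. Paralog group 9 summed to 13.7, 30.1 and 62.8 CPM in Vmed and 126, 47.3 and 69.5 CPM in Vhigh, and only as a share of the Hox counts (3.45%, 13.2% and 17.9% against 43.0%, 21.4% and 32.0%) were the fractions apart. Hoxa9 had the most group 9 counts in each library but Vmed 1, where Hoxc9 had the most. Groups 10 and 13 leaned on Vmed 1, which held 159 CPM of group 10 and 51.7 CPM of group 13 against at most 84.4 and 16.5 CPM in any other library.

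Vhigh was compared with Vmed by edgeR's quasi-likelihood test over the 12688 genes that passed a filter on low counts, 25 of them Hox genes. No gene had an adjusted p under 0.05 (0% of genes tested), and the adjusted p was 0.9998 for each Hox gene by this test. At an unadjusted p under 0.05 the test gave 259 genes (2.04%), 1.17% lower and 0.867% higher in Vhigh, and Hoxc9, in the lower part, was the 1 Hox gene among them. With the replicate block edgeR's quasi-likelihood test gave Hoxc9 an unadjusted p of 0.079, and without the filter on low counts or with any 1 library left out it was also above 0.05. The likelihood ratio test gave 21 genes (0.166%) and DESeq2 51 (0.402%) at an adjusted p under 0.05. With the replicate number as a block the likelihood ratio test gave 74 (0.583%), and none of these 3 lists held a Hox gene. At an unadjusted p under 0.05 DESeq2 gave 494 of the 12688 genes, with Hoxc9 and Hoxd10 among them. The likelihood ratio test with the block gave 755 of the 12688, with Hoxb3 and Hoxc9 among them. The spread behind these results was wide, as the biological coefficient of variation over all genes was 1.16. Of the 25 Hox genes, 18 had a log2 fold change below 0, beside 51.1% of all genes tested, and 14 were below -1, beside 18.4% of all. The 3 above 1, beside 12.8% of all, were Hoxa9, Hoxc4 and Hoxd12. The median log2 fold change was -1.36 for the Hox genes and -0.02 for all genes tested. These are descriptions with no test, the members share libraries and neighbouring genes are not independent of each other, and the 14 members that did not pass the filter are not in them. A member could pass through the fraction in which it was high. Over all 39 members the mean CPM was lower in Vhigh for 28 and higher for 10, with Hoxb13 at 0 throughout. These counts have no share of all counted genes beside them, and they include members with very few counts.

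**Figure D3:**
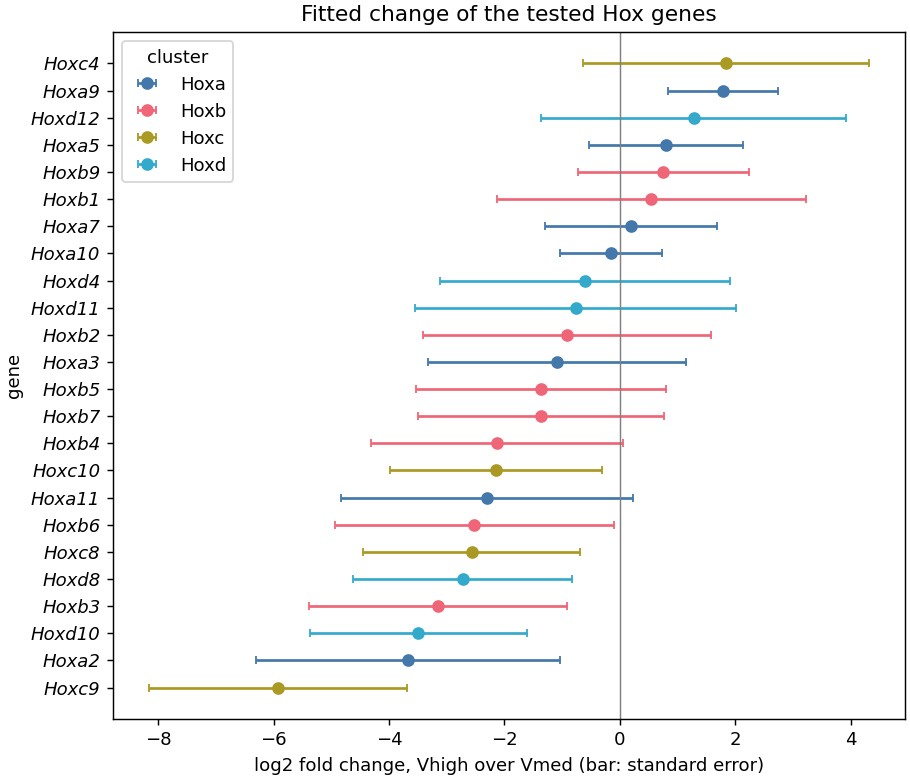
Log2 fold change of Vhigh over Vmed (horizontal axis, bar ± standard error) for 24 of the 25 tested Hox genes (vertical axis), coloured by cluster. The points run from -5.92 for Hoxc9 to 1.83 for Hoxc4, and none has an adjusted p under 0.05.

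The fractions were also read within same-numbered libraries. In pair 1, 18 of the 25 tested Hox genes were lower in Vhigh, beside 58.0% of all tested genes. In pair 2 it was 14 of 25, beside 42.4%, and in pair 3 it was 20 of 25, beside 45.1%. Of the 25 tested Hox genes, 10 were lower in Vhigh in 3 of 3 pairs, beside 15.4% of all tested genes, and 1, Hoxa9, was higher in 3 of 3, beside 15.2%. Of all 39 members it was 12 and 1, for which no share of all counted genes was computed. The 12 included Hoxb3, Hoxb4, Hoxb6, Hoxb7, Hoxc5, Hoxc6, Hoxc8, Hoxc9, Hoxc10, Hoxd8 and Hoxd10, of which 5 are from the 9 genes of the Hoxc cluster. Some of these orders rest on few counts, as Hoxb6 had 1 count and Hoxb4 20 counts in both libraries of pair 2. Hoxc5 had 6 counts in Vmed and 4 in Vhigh in pair 2, and Hoxc6 had 7 and 6 in pair 3.

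Hoxa9, a factor of hematopoietic stem cells and a frequent driver in acute leukemia (chromosome 6, 52223100 to 52231089), was the 1 member whose fractions did not overlap with Vhigh higher, beside 3.64% of all tested genes. Its counts were 52, 142 and 315 in Vmed and 1100, 452 and 536 in Vhigh, which is 5.95, 17.1 and 32.4 CPM against 103, 41.6 and 44.5 CPM. The lowest Vhigh library was above the highest Vmed library, and the gap between them was narrow next to the spread within each fraction. The means were 18.5 ± 13.3 CPM and 63.1 ± 34.7 CPM (SD, n = 3), and edgeR gave a log2 fold change of 1.79 with a standard error of 0.96 and an unadjusted p of 0.099. The exact two-sided permutation p was 0.1, which is the smallest that 3 libraries against 3 allow. The log2 fold change was 1.13 without Vhigh 1, 2.504 without Vmed 3, and 0.72 (standard error 0.72) without both replicate 1 libraries. Mir196b, a microRNA gene inside the annotated exons of Hoxa9, had at most 2 counts.

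Hoxa10, which lies directly beyond Hoxa9 (chromosome 6, 52231197 to 52240854) and acts in myeloid and erythroid progenitors, was the highest Hox gene per kilobase over all libraries, at a mean of 15.8 RPKM. It was at 74.4, 57.3 and 30.1 CPM in Vmed and 81.6, 53.1 and 12.9 CPM in Vhigh. Replicate 3 was the lowest library of each fraction, and the fractions overlapped (log2 fold change -0.14, standard error 0.88). The log2 ratio of Hoxa9 to Hoxa10 in RPKM was -4.41, -2.51 and -0.66 in Vmed and -0.43, -1.12 and 1.02 in Vhigh, and Vhigh 2 overlapped with Vmed 3. Hoxa10 was the highest Hox gene by count in Vmed 1, Vmed 2 and Vhigh 2, with 18.7% (17.4 to 20.04), 25.1% (23.2 to 27.1) and 24.0% (22.3 to 25.7) of the Hox counts. Hoxa9 was highest in Vhigh 1 and Vhigh 3, with 35.1% (33.5 to 36.8) and 20.5% (19.0 to 22.1). Hoxa7 was highest in Vmed 3, with 12.8% (11.7 to 14.0).

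Hoxa5 (chromosome 6, 52201754 to 52204587), which has roles in lung development and in blood progenitors, was at 18.5, 1.93 and 27.3 CPM in Vmed and 53.5, 10.9 and 17.9 CPM in Vhigh. Vhigh 1 was the highest library and Vmed 2 the lowest, and the log2 fold change was 0.80 (standard error 1.33), or -0.24 without Vhigh 1. Hoxa7, a cluster neighbour often raised together with Hoxa9 in leukemia, was at 0.801, 11.5 and 45.0 CPM in Vmed and 6.38, 17.5 and 43.4 CPM in Vhigh. In both fractions it was lowest in replicate 1 and highest in replicate 3, and the fractions overlapped (log2 fold change 0.19, standard error 1.49, or 1.06 with the replicate number as a block). Of its exons 20.4% lie opposite the antisense gene Hoxaas3, and whether counting used strand is not given in the sources used here. Hoxb9, a factor of thoracic patterning, was at 1.60, 10.8 and 18.8 CPM in Vmed and 23.2, 5.62 and 22.7 CPM in Vhigh. Vhigh 2 lay below Vmed 2 and 3, and the log2 fold change was 0.75 (standard error 1.48), or 0.25 without Vmed 1 and 1.54 without Vmed 3.

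**Figure D4:**
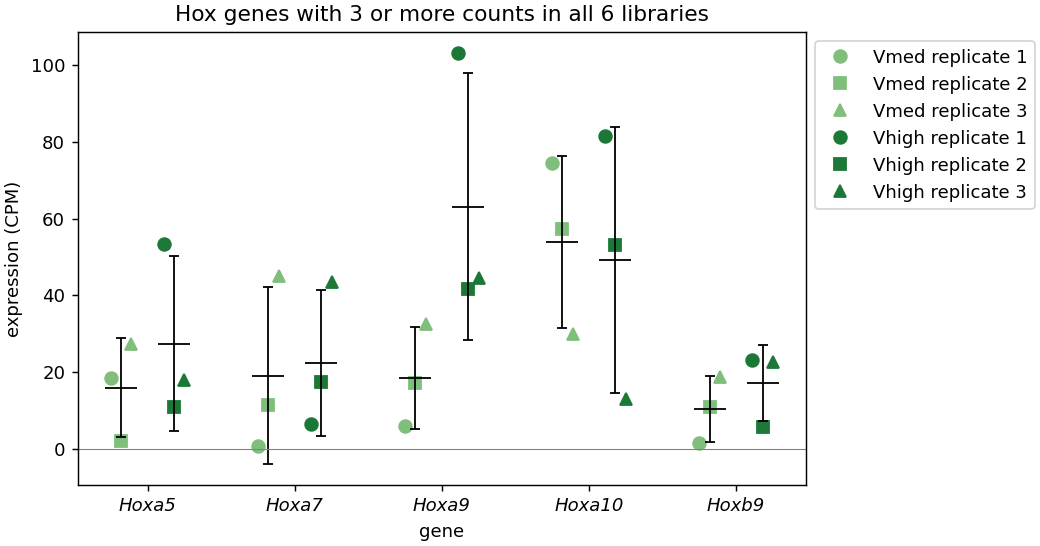
Expression in CPM (vertical axis) of the 5 Hox genes detected in all 6 libraries (horizontal axis), with each library as a point and the mean ± SD of each fraction as a line and bar (n = 3). The Hoxa9 points of Vhigh, at 41.6 to 103 CPM, all lie above those of Vmed, at 5.95 to 32.4 CPM, and the points of the other 4 genes overlap.

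Hoxc8, which acts in the thoracic skeleton and in brachial motor neurons, was at 29.2, 15.7 and 7.93 CPM in Vmed and 0, 8.01 and 1.99 CPM in Vhigh, so Vhigh 2 lay just above Vmed 3 on this scale and just below it after TMM normalization. Its log2 fold change was -2.56 (standard error 1.88), or -4.23 without Vhigh 2. Hoxc10, a lumbar patterning gene, was at 28.0, 17.6 and 8.34 CPM in Vmed and 0, 6.35 and 6.65 CPM in Vhigh, and each Vhigh library was below each Vmed library (log2 fold change -2.15, standard error 1.84, exact two-sided permutation p = 0.1). Hoxc4, at the anterior end of the cluster, was at 2.40, 0.362 and 4.73 CPM in Vmed and 25.3, 0 and 0.0831 CPM in Vhigh, so that Vhigh 1 alone carried its higher mean (log2 fold change 1.83, standard error 2.48) and without it the value was -5.57. The exons of Hoxc10 and Hoxc5 share 166 bases on the same strand.

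Fractions that did not overlap with Vhigh lower were found after TMM normalization for 5 of the 25 tested Hox genes, Hoxb3, Hoxb4, Hoxc8, Hoxc9 and Hoxc10, beside 5.30% of all tested genes. Hoxc9, which acts in the specification of thoracic motor neurons and is described here because of its values, had 53, 18 and 38 counts in Vmed and 0, 1 and 1 in Vhigh. It was the 1 member detected in all Vmed and in no Vhigh libraries, a pattern whose share among all genes was not computed. Its summed counts relative to the gene totals were 68.4 times higher in Vmed (95% counting interval 18.5 to 572), and edgeR gave a log2 fold change of -5.92 with a standard error of 2.23, an unadjusted p of 0.038 and an adjusted p of 0.9998. Hoxb4, known for expanding hematopoietic stem cells when overexpressed, was also singled out by its values, with 6.18, 2.41 and 3.50 CPM in Vmed and 0, 1.84 and 1.16 CPM in Vhigh (log2 fold change -2.13, standard error 2.18). Hoxb3 was at 3.43, 6.99 and 5.15 CPM in Vmed and 0.0938, 1.84 and 0 CPM in Vhigh (log2 fold change -3.16, standard error 2.24, or -6.34 without Vhigh 2 and -4.79 with the replicate block), and 52.9% of its exons lie opposite Hoxb3os.

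For Hoxd8, Hoxd10, Hoxd11 and Hoxd13 the highest library was Vmed 1. Hoxd10, a gene of lumbar motor neurons and the hindlimb (chromosome 2, 74691924 to 74695105), was at 56.4, 9.52 and 4.53 CPM in Vmed and 0, 6.26 and 0.914 CPM in Vhigh. Vmed 1 held most of its counts, Vhigh 2 lay above Vmed 3, and the log2 fold change was -3.49 (standard error 1.88, exact two-sided permutation p = 0.2), or -1.69 without Vmed 1 and -5.79 without Vhigh 2. Hoxd8 was at 38.0, 17.7 and 5.04 CPM in Vmed and 0, 9.21 and 1.25 CPM in Vhigh, which gives the same order of libraries as Hoxd10 and Hoxc8. Its log2 fold change was -2.72 (standard error 1.89), or -5.11 without Vhigh 2 and -1.83 without Vmed 1. Hoxd13, a gene of the digits and the genital tubercle that did not pass the filter, was at 50.7, 0 and 0.823 CPM in Vmed and 0.188, 8.38 and 0 CPM in Vhigh, so that 1 library set its Vmed mean. Hoxd3 and Hoxd4 share 62.3% and 52.3% of their exon bases with other genes on the same strand, including each other, and their counts are uncertain.

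Posterior Hoxa11, which patterns the forearm and the uterus, was likewise a gene of 1 library, with 27.3, 0.603 and 0 CPM in Vmed and 0, 2.95 and 3.24 CPM in Vhigh. Its log2 fold change was -2.30 (standard error 2.53), 2.71 without Vmed 1 and 1.79 in the fit with the replicate number as a block, and 35.0% of its exons lie opposite Hoxa11os. Hoxb5, whose reporter marks long-term stem cells in adult marrow, was at 3.09, 1.57 and 24.4 CPM in Vmed and 0, 3.04 and 8.72 CPM in Vhigh. Hoxb7, a gene of the nephric duct, was at 1.03, 12.1 and 28.1 CPM in Vmed and 0, 1.01 and 15.0 CPM in Vhigh. Both were highest in replicate 3 of each fraction and overlapped between fractions (log2 fold changes -1.36, standard error 2.17, and -1.37, standard error 2.14). The log2 fold change of Hoxb5 was 0.69 without Vmed 3 and -2.81 without Vhigh 3. That of Hoxb7 was -0.24 without Vmed 3, -4.83 without Vhigh 3 and -3.20 with the replicate block. The other 25 members, all with a mean under 5 CPM, had at most 16.03 CPM in any library, a value of Hoxa4 in Vmed 2.

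Hox protein partners were present in both fractions. Of 9 cofactor genes 8 were tested, 2 with a log2 fold change above 0 and 6 below, and 0 with an adjusted p under 0.05 by edgeR or an unadjusted p under 0.05. Meis1, a cofactor of Hoxa9 in stem cells, was at 421, 266 and 93.2 CPM in Vmed and 265, 304 and 139 CPM in Vhigh. Its fractions overlapped, and as for Hoxa10 the replicate 3 library was the lowest of each. Meis2 was at 122, 51.8 and 63.2 CPM in Vmed and 0.563, 49.5 and 27.3 CPM in Vhigh, each Vhigh library below each Vmed library. Pknox1 was at 34.1, 43.3 and 29.6 CPM in Vmed and 43.6, 61.2 and 61.7 CPM in Vhigh, each Vhigh library above each Vmed library.

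Of 12 genes that act upstream of Hox clusters, 9 were tested, 4 with a log2 fold change above 0 and 5 below. Aldh1a2, which makes retinoic acid, an inducer of anterior Hox genes, was at 370, 30.7 and 67.1 CPM in Vmed and 6.38, 5.62 and 13.6 CPM in Vhigh. The Vhigh libraries were all lower (log2 fold change -4.24, standard error 0.92, unadjusted p = 0.0023 and adjusted p = 0.9998 by edgeR). Aldh1a2 was the 1 gene of this list with an unadjusted p under 0.05, beside 1.17% of all tested genes in this direction. Rarb was also lower in each Vhigh than in each Vmed library, beside 5.30% of all tested genes. Ash1l was higher in each, beside 3.64%, at 55.5, 86.9 and 51.3 CPM in Vmed and 105, 158 and 134 CPM in Vhigh. Kmt2a is the trithorax-group methyltransferase that maintains Hoxa expression in blood cells. It was at 54.1, 101 and 55.4 CPM in Vmed and 1.41, 105 and 49.1 CPM in Vhigh, with overlapping fractions. Its lowest value was in Vhigh 1, the library with the fewest detected genes. Cdx1, Cdx2 and Cdx4, the caudal factors that activate Hox genes in the embryo's posterior, were at 0 to 2.49 CPM. Of 16 genes of Polycomb and other Hox repressors 14 were tested, 8 above 0 and 6 below, with overlapping fractions for each of the 14. Ezh2, the Polycomb methyltransferase, was at 169, 82.1 and 210 CPM in Vmed and 116, 148 and 173 CPM in Vhigh. Of 10 ParaHox and non-clustered homeobox genes 1 (Gbx2) was tested, and Evx2, Gsx1, Gsx2 and Mnx1 had 0 counts in all libraries.

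Most tested markers of cells outside the blood lineage had a log2 fold change below 0, beside 51.1% of all tested genes. The mesenchyme and the mesonephros and gonad sums did not overlap between fractions, while the neural and somite sums did. Of 15 mesenchyme markers 13 were tested, 12 with a log2 fold change below 0 and Twist1 above (0.45). Of the 12, 8 had an unadjusted p under 0.05 by edgeR, beside 1.17% of all tested genes in this direction. The fractions did not overlap for 9 of the 12, beside 5.30% of all tested genes in this direction. The sum of the mesenchyme markers was 2643 to 5540 CPM in Vmed and 376 to 833 CPM in Vhigh. Mesonephros and gonad markers were lower for 6 of 6 tested of 10, with 32.4 to 138 CPM in Vmed and 10.8 to 22.8 CPM in Vhigh, led by Wt1 at 102, 13.9 and 40.3 CPM in Vmed. Neural and neural crest markers were lower for 7 of 7 tested of 12, with 49.0 to 315 CPM in Vmed and 19.1 to 70.4 CPM in Vhigh. The defining neural genes Sox1 and Olig2 were at 0 in all libraries, and Sox2, Sox3 and Foxd3 were at 0 in all but Vhigh 2. Somite and muscle markers were lower for 3 of 3 tested of 8, with 13.6 to 47.6 CPM in Vmed and 0 to 25.9 CPM in Vhigh, and Myod1 was at 0. Vmed 1, which held the most Hoxd10, Hoxd13 and Hoxa11, also held the most Wt1, Aldh1a2 and neural marker signal. Its summed mesenchyme and somite signal was the lowest of the Vmed libraries (2643 and 13.6 CPM), but single mesenchyme markers differed. Among the Vmed libraries Col1a1, Col1a2, Col3a1, Dcn, Lum and Postn were lowest in Vmed 1. Meox2, Pdgfra, Prrx1, Tbx18, Tcf21 and Twist1 were highest there, as with Prrx1 at 152, 22.3 and 7.10 CPM in Vmed. The Hoxc sums were lower in each Vhigh library, while for Hoxd only the mean was lower, carried by Vmed 1. The part of cells outside the blood lineage in these values was not tested.

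**Figure D5:**
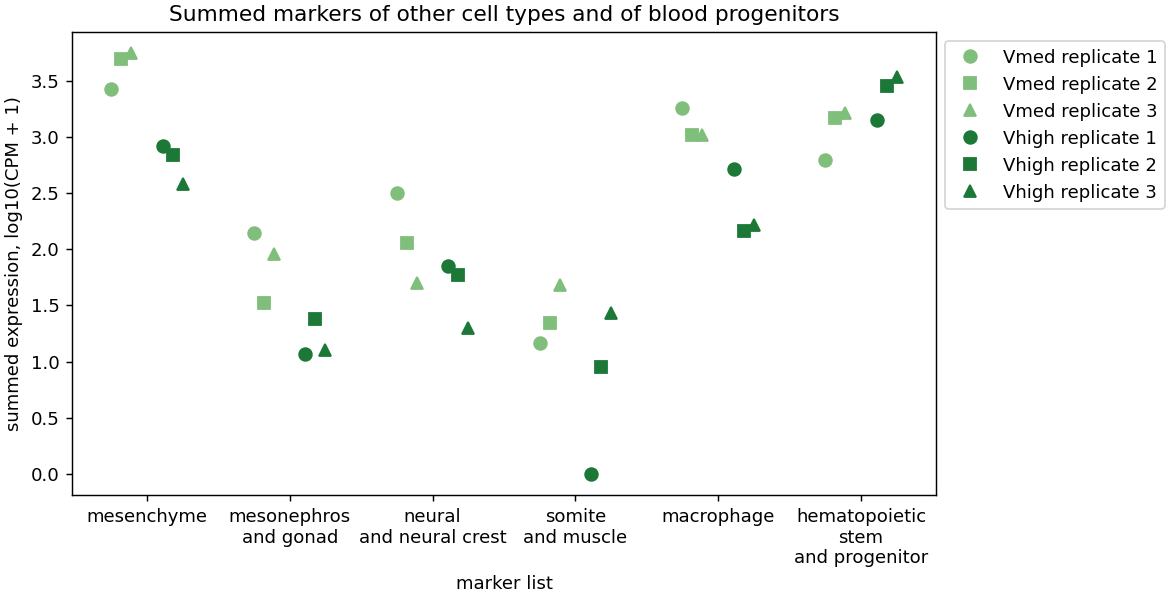
Summed expression of 6 marker lists (horizontal axis) in each library, as log10(CPM + 1) on the vertical axis, with light points for Vmed and dark points for Vhigh and a shape for each replicate number. Mesenchyme sums are 2643 to 5540 CPM in Vmed and 376 to 833 CPM in Vhigh, and stem and progenitor sums are 626 to 1638 CPM in Vmed and 1425 to 3378 CPM in Vhigh.

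Stem and progenitor markers had mostly higher values in Vhigh, and vessel and macrophage markers mostly lower ones. Of 15 stem and progenitor markers, all tested, 14 had a log2 fold change above 0, while 51.1% of all tested genes were below 0. Of the 14, 5 had an unadjusted p under 0.05 by edgeR, beside 0.867% of all tested genes in this direction. The sums of the 15 markers were 626 to 1638 CPM in Vmed and 1425 to 3378 CPM in Vhigh. Myb, a factor of definitive progenitors, was at 1.83, 1.33 and 5.97 CPM in Vmed and 73.3, 199 and 104 CPM in Vhigh, and Hlf, a stem cell factor, was at 0.229, 2.53 and 0.515 CPM in Vmed and 50.7, 73.6 and 41.5 CPM in Vhigh. Like Hoxa9 they were higher in each Vhigh than in each Vmed library, and neither had an adjusted p under 0.05 by edgeR. Endothelial markers were below 0 for 13 of 14, with sums of 1483 to 6538 CPM in Vmed and 1245 to 4515 CPM in Vhigh. Macrophage markers were below 0 for 11 of 11, with 1030 to 1797 CPM in Vmed and 145 to 520 CPM in Vhigh. Erythroid markers were below 0 for 5 of 7 tested of 10 (188 to 602 and 118 to 233 CPM), and megakaryocyte markers for 5 of 8 (446 to 1075 and 308 to 553 CPM). The part of a different makeup of the fractions in the Hoxa9 values was not tested.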

How the data were processed

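RNA of CD31+ckit+Vmed and CD31+ckit+Vhigh cells was prepared by the SMARTer protocol and sequenced as single reads of 50 bp. Alignment was to GRCm38/mm10 with TopHat/Bowtie. The authors deposited unnormalized counts for each gene, and the submitters' processing notes name Bowtie 1.1.2 and HTSeq. The annotation and strand setting are not given in the sources used here. The 5 lines of unassigned reads were left out of gene totals.

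CPM were computed from gene totals, and RPKM with exon-union lengths of GENCODE release M21 (21), which held all 39 Hox genes. Differences between Vhigh and Vmed were tested in R 4.3.3 by edgeR 4.0.16 (filterByExpr, TMM, quasi-likelihood test, Benjamini-Hochberg at 0.05), with the fraction as the only term; single Hox genes were also compared by an exact two-sided permutation test over 20 arrangements. Counts of single genes whose fractions did not overlap were taken on CPM after TMM, with no prior count. The permutation test used log2 CPM after TMM with a prior count of 2. Same-numbered libraries deviated together from their group means (r = 0.21, 0.21 and 0.39, against -0.29 to -0.01 for other pairs). The fractions were therefore also read within same-numbered libraries, and the replicate number was used as a block in alternative fits. The main fit and the permutation test do not use the replicate numbers, so their values ignore any pairing. What the replicate numbers mark is not stated. Alternatives were other normalizations, filters and tests (DESeq2 1.42.0 included), the replicate block, thinning to the smallest library and leaving out each library; leaving out both replicate 1 libraries was added after seeing the data. Members with a mean of at least 5 CPM, or 20 CPM in any library, were described library by library. The 39 members and the 13 gene lists (151 genes) were chosen with earlier results of these data known. Values of some genes are not reported here. No library repeated another (chi-square per degree of freedom of 93.7 or more).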

Additional observations from a re-analysis of the deposited data

How the results depend on the processing

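The number of Hox genes called was 0 in the main setting and in all 17 alternatives, the replicate block included. Over all genes the number called was 0, 37 without a filter on low counts, 21 with the likelihood ratio test, 51 with DESeq2, 74 with the replicate block and the likelihood ratio test, and 0 to 1 with a library left out (1 without Vhigh 1). The cause was not tested. The median log2 fold change of the Hox genes was -2.55 in the quasi-likelihood fit that has the replicate block; with a library left out it was -2.34 to -1.19, and without both replicate 1 libraries -1.08.

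Of the 25 tested Hox genes 14 kept the sign of their log2 fold change in every setting, and 22 kept it in the settings with all 6 libraries. With the replicate block (quasi-likelihood and likelihood ratio test) the sign turned for Hoxa11 (1.79 and 1.88), Hoxb1 (-2.54 and -2.59) and Hoxc4 (-2.96 and -3.03). Without both replicate 1 libraries it turned for Hoxa11 (3.29), Hoxa5 (-0.10), Hoxb9 (-0.087) and Hoxd11 (2.37). With 1 library left out it turned for Hoxa10 (-0.88 to 0.34), Hoxa11 (-2.96 to 2.71), Hoxa5 (-0.24 to 1.42), Hoxa7 (-0.71 to 1.89), Hoxb1 (-7.62 to 2.03), Hoxb2 (-3.09 to 0.16), Hoxb5 (-2.81 to 0.69), Hoxc4 (-5.57 to 2.67), Hoxd11 (-8.89 to 1.78) and Hoxd4 (-1.16 to 3.26). At a minimum of 10 counts the Hox genes detected were 23, 21 and 26 in Vmed and 6, 25 and 24 in Vhigh, so that Vhigh 2 and 3 then exceeded Vmed 1 and 2. Mean cluster and zone shares moved by less than their SD between libraries at 10 counts, after thinning and per kilobase. The number of Hox genes detected was not recomputed per kilobase, which changes no count. Levels under 3 counts were not detectable at this depth, and a fold change of a gene with 0 counts in a library depends on the prior count.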

Other observations

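Non-coding genes in the Hox clusters were counted apart from the 39 members. Hoxa11os, the antisense gene opposite Hoxa11, had 233, 0 and 74 counts in Vmed and 1, 190 and 1 in Vhigh, and the fractions overlapped. Hotair, a long non-coding gene of the Hoxc cluster, had 26 counts in Vmed 2, 8 in Vhigh 2 and 0 in the other 4 libraries, which are the same 2 libraries in which Hoxc13 was found. Hottip, at the posterior end of the Hoxa cluster, had 20 counts in Vhigh 2, 5 in Vhigh 3 and 0 in the others. Hoxd3os1 had 5, 0 and 12 counts in Vmed and 0, 27 and 5 in Vhigh. The microRNA genes Mir10a, Mir10b, Mir196a-1, Mir196a-2, Mir196b and Mir615 had at most 2 counts in any library.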
